A study of Mus musculus with 9 samples.

Results

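Serpins, the genes whose symbol begins with Serpin, were read on 9 whole-transcript expression arrays of mouse fibroblasts, doxycycline-treated fibroblasts and induced pluripotent stem (iPS) cells. The annotation lists 69 such symbols, of which 48 had an array feature of their own, out of 19937 genes measured in all, and these 48 genes are described here. Another 5 symbols were named only on features that several genes share, and 16, of which 5 are pseudogenes, had no named feature. Genes without a feature of their own were not analysed here. Readings are log2 values, so that 1 unit is a 2-fold difference.

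There were 3 groups of 3 arrays. All cells carried the OG2-GFP reporter and the Rosa26-M2rtTA transgene, which lets doxycycline switch on factors from an inducible promoter. The fibroblast group held passage 4 fibroblasts of mice made from TSKM iPS cells, the letters standing for Tet1, Sox2, Klf4 and c-Myc. The TSKM-3D group held such fibroblasts at passage 4 after 3 days of doxycycline, and their medium was changed at the same time to one for embryonic stem cells with LIF, so that factors, drug and medium cannot be told apart. The iPS group held TSKM iPS cells at passages 10 to 15, grown on mitomycin-treated embryonic fibroblasts that were removed by 0.5 h of plating. Since the fibroblasts came from mice made from TSKM iPS cells, the iPS arrays are not taken as a later time of the same cultures. Passage and growth on feeders go with the iPS group, and their part cannot be told apart. Words such as step, fell, rose and came back compare groups and follow no culture over time. Nothing in the labels ties the 3 arrays of a group to different cultures, and the spread that the p-values rest on may be technical. One label of the third fibroblast array calls its cells 3-day induced, whereas its title, source and passage call them fibroblasts, and it was kept as fibroblast.

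The groups were checked against marker genes. The mean reading of 10 fibroblast markers lay at 11.47 to 11.56 on the fibroblast arrays, 9.51 to 9.56 on the TSKM-3D arrays and 8.61 to 8.82 on the iPS arrays. That of 10 pluripotency markers lay at 5.06 to 5.14, 5.36 to 5.69 and 11.28 to 11.35. By day 3, 2 of these markers were at least 2-fold higher at an adjusted p under 0.05 (3.25% of all genes). They were Pou5f1 (1.85) and Sox2 (1.39), which is itself an introduced factor. The other 8 did not pass in either direction. Of the introduced factors, Sox2 and Myc were higher on the TSKM-3D than on the fibroblast arrays, by 1.39 and 1.60. Klf4 differed by 0.04, which was not called, and Tet1 was lower by 1.13. Neither of these readings showed the rise that the label TSKM-3D would lead to. Whether the features read the introduced copies or only the cells' own genes was not tested. Array medians ran from 6.01 to 6.23. Setting them equal moved the median difference of all genes from -0.01 to -0.13 for iPS against TSKM-3D and from 0.05 to -0.12 for iPS against fibroblast.

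Serpins share a fold in which an exposed reactive loop serves as bait. A protease that cuts the loop of an inhibitory serpin is dragged across the molecule and stays trapped in a covalent complex, so that each inhibitor molecule works a single time. Clades A, C, D, E, F, G and I are largely secreted and act on clotting, fibrinolysis, complement and inflammation. Clade B members lack a classical signal peptide and mostly guard the cytosol against granule and lysosomal proteases, and some members, such as the collagen chaperone Serpinh1, inhibit no protease.

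Promoter windows of 250 bases before the annotated start were available for 41 of the 48 genes (RefSeq, GRCm38.p6). The windows of Serpinb9 (chr13:33004291-33004540, plus strand) and Serpinb9b (chr13:33027164-33027413, plus strand) are shown because these neighbouring genes fell together by day 3 and then parted. Capitals mark the runs of at least 10 bases that both windows hold. These cover 25 bases of each window, the longest being 13 bases, and lie near the start of both genes.
Serpinb9: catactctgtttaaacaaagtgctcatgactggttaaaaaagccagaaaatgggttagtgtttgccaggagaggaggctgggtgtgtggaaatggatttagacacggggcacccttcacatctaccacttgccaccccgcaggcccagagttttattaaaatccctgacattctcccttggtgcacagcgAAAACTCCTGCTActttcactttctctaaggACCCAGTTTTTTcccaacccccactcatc
Serpinb9b: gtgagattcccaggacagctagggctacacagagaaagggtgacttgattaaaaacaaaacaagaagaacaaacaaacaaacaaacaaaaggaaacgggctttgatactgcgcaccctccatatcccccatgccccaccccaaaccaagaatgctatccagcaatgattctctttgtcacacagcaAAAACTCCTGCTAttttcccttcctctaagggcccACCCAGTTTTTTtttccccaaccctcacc

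The next windows belong to the member with the largest difference, Serpina3n (chr12:104406458-104406707, plus strand), to Serpinh1 (chr7:99353240-99353489, minus strand), and to Serpinb6c (chr13:33905192-33905441, minus strand), a member higher in iPS cells. Each is written along its own gene, and capitals mark a GC box, GGGCGG.
Serpina3n: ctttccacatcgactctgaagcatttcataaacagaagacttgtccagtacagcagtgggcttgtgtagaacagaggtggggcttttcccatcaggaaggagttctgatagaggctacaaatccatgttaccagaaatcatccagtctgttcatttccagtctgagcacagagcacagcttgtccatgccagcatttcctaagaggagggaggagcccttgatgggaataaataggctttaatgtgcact
Serpinh1: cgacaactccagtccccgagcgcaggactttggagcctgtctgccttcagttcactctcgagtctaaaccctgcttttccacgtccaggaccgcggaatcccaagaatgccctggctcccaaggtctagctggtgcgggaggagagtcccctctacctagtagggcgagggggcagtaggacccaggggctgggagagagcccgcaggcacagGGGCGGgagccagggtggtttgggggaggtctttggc
Serpinb6c: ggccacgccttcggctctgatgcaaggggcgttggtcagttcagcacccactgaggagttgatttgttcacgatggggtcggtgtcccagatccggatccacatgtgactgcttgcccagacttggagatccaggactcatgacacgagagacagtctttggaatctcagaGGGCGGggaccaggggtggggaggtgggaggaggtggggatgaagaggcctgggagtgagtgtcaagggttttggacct

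The motifs searched on both strands were TATAAA, the AP-1 motif TGANTCA, the STAT motif TTCNNNGAA, the E-box CACGTG, the GC box GGGCGG, the Sox motif ACAAAG and the heat shock motif GAANNTTC. In the order given, 12.4%, 6.75%, 7.02%, 6.02%, 32.7%, 16.5% and 6.69% of all 32851 windows held them. The GC box lay 37 to 32 bases before the start of Serpinh1 and 79 to 74 bases before that of Serpinb6c. A Sox motif lay 236 to 231 bases before the start of Serpinb9 and 79 to 74 bases before that of Serpinb9b, so that the copies are at different places. The Serpina3n window matched none of the 7. A match is a description of the letters.

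A gene was called where limma's Benjamini-Hochberg adjusted p, taken over all 19937 genes, was under 0.05 and the difference was at least 2-fold. Between fibroblast and TSKM-3D, 6 of 48 Serpin genes were called in either direction, or 12.5%, against a background of 10.8% of all genes. All 6 were lower, where 7.58% of all genes were. None was called higher, against 3.25% of all genes, while 6 were higher at an unadjusted p under 0.05 (23.7% of all genes) and 9 lower (27.2%). Between TSKM-3D and iPS, 2 were called higher (6.48% of all genes) and 3 lower (8.57%), so that 5 of 48 were called against 15.1%. Between fibroblast and iPS, 1 was called higher (7.63%) and 7 lower (13.8%), or 8 of 48 against 21.5%. With no fold requirement, 10, 8 and 13 members passed the adjusted p threshold in those comparisons, against 44.6%, 45.6% and 54.6% of all genes. Groups did not overlap for 15, 12 and 17 members, against 53.1%, 49.5% and 65% of all genes. The share called in either direction was near the background by day 3 and below it in the other comparisons, and no excess of changed genes is read from these counts.

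Most of the family was dim throughout. On all 9 arrays, 34 of the 48 members read below the median of the array, as did 6742 of the 19937 genes. None of the 34 was called in any comparison. The share called among all such dim genes was not computed. The 9 members called at least once were among the 14 that reached the median on at least 1 array. They were Serpinh1, Serpinf1, Serpina3n, Serpinb1a, Serpinb9, Serpinb9b, Serpinb6a, Serpinb8 and Serpinb6c. The median difference over the 48 genes was 0.07, -0.07 and 0.04 in the order of the comparisons above, beside 0.05, -0.01 and 0.05 over all genes.

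**Figure D1:**
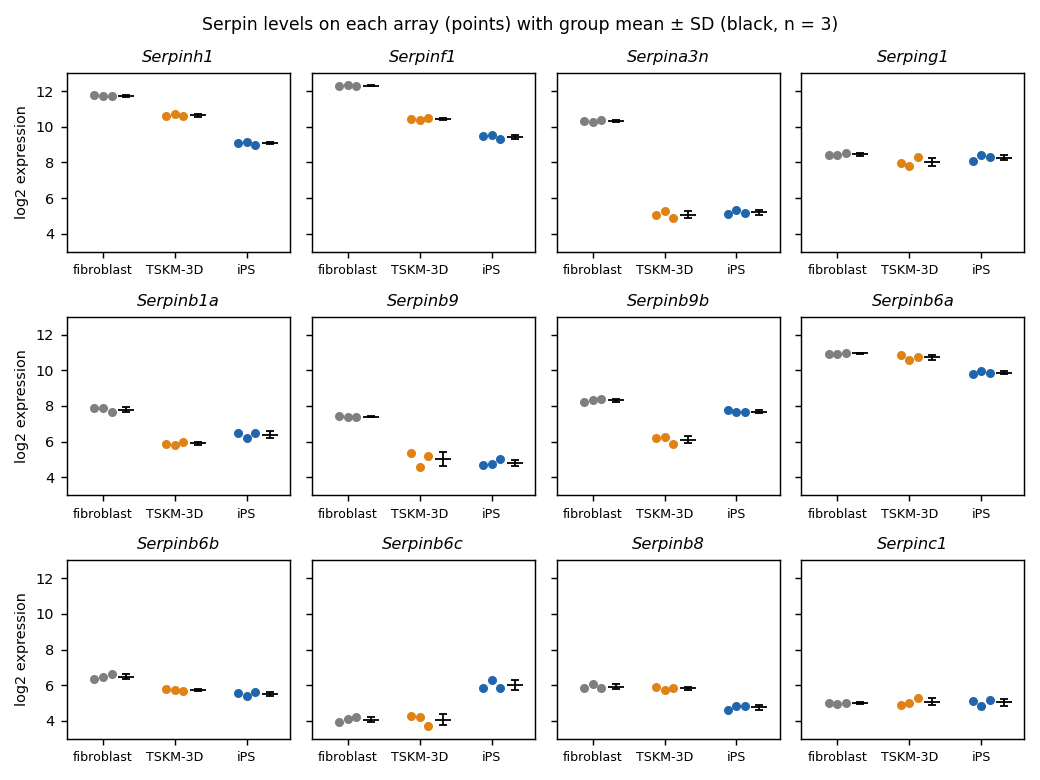
Readings of Serpin genes on each of the 9 arrays (vertical axis, log2 array reading), with arrays grouped as fibroblast, TSKM-3D and iPS. Shown are Serpinh1, Serpinf1, Serpina3n, Serping1, Serpinb1a, Serpinb9, Serpinb9b, Serpinb6a, Serpinb6b, Serpinb6c, Serpinb8 and Serpinc1. Serpinh1 and Serpinf1 step down at each stage, Serpina3n drops once, from about the 10.28 to 10.40 of the fibroblast arrays, Serpinb9b dips at day 3, and Serpinb6c rises in the iPS group.

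Serpinh1 and Serpinf1, which trap no protease, fell at both steps. Other members known as non-inhibitory did not pass the test at either step: the hormone carriers Serpina6 and Serpina7 differed by -0.19 and 0.12 by day 3, and Serpinb5, maspin, by -0.01. Serpina6, Serpina7 and Serpinb5 were below the array median on all 9 arrays, so that a fall in them might not have been seen. Serpinh1, an endoplasmic reticulum chaperone that binds folding procollagen, read 11.77, 11.70 and 11.70 on the fibroblast arrays, 10.58, 10.70 and 10.62 on the TSKM-3D arrays and 9.11, 9.17 and 9.004 on the iPS arrays. Each group lay clear of the one before it. The difference was -1.09 ± 0.08 (SE) by day 3 (2.13-fold, adjusted p = 3.33e-07, n = 3 per group by limma). From TSKM-3D to iPS it was -1.54 ± 0.08 (2.91-fold, adjusted p = 1.17e-08), and the whole distance came to 6.19-fold. The day 3 call is marginal in size, since quantile normalization gave -0.99, just short of 2-fold.

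Serpinf1 encodes PEDF, a secreted, non-inhibitory glycoprotein known to restrain blood vessel growth. It read 12.27, 12.36 and 12.29 on the fibroblast arrays, 10.46, 10.37 and 10.48 on the TSKM-3D arrays and 9.48, 9.51 and 9.32 on the iPS arrays, again with no overlap between groups. It was lower by day 3 by 3.66-fold (difference -1.87 ± 0.08, adjusted p = 8.4e-09). It then fell by 1.00 ± 0.08 to the iPS group (adjusted p = 5.95e-07), and from fibroblast to iPS by 7.33-fold. The later difference sits on the 2-fold limit and was just under it without the first TSKM-3D array (-0.99), without the third (-0.98) and without the third iPS array (-0.94). In bulk samples, fewer cells of a type and less RNA per cell cannot be told apart. The mean of the fibroblast markers given above was lower at each of these steps, but its members differed. By day 3, 7 of 10 were called lower (7.58% of all genes), among them Lum (-5.51) and Dcn (-4.44). Col1a2 and Col3a1 differed by 0.60 and 0.59, under 2-fold (limma adjusted p of 0.000881 and 0.00318). From TSKM-3D to iPS, 4 were called lower (8.57% of all genes) and 1 higher (6.48%), Dcn by 1.45, and Lum differed by 0.37. Markers of primitive and parietal endoderm, embryonic cells that make much collagen IV, averaged 7.59 to 7.65, 7.03 to 7.31 and 6.75 to 6.85 over the groups. That list's median differences were 0.02, 0.06 and 0.03, and so had the other sign from its mean. Of its members, Pdgfra, Dab2, Sparc and Gata6 were called lower in iPS cells than in fibroblasts, and Lama1 higher (1.78). The part of such shifts in the Serpinh1 and Serpinf1 values was not tested.

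Genes that modify, fold and export procollagen alongside Serpinh1 were taken as a list, of which 29 of 33 were measured. By day 3, 6 were called lower, where 7.58% of all genes were, and 23 did not pass in either direction. The median difference was -0.28. P4ha3, a prolyl 4-hydroxylase subunit, fell by 4.33. The lysyl hydroxylases Plod1 (-1.65) and Plod3 (-1.28), the procollagen C-proteinase Bmp1 (-1.65), the retrieval receptor Kdelr3 (-1.57) and the prolyl 3-hydroxylase family gene P3h3 (-1.33) were the others. The collagen chains were not among them. Col4a2 (0.89), Col5a2 (0.69), Col4a1 (0.66), Col1a2 (0.60) and Col3a1 (0.59) were higher at an adjusted p under 0.05, but under 2-fold and so not called. Col5a1 differed by 0.22 and Col1a1 by 0.11, past neither limit. Over the list, 7 genes were higher and 17 lower at an unadjusted p under 0.05, where 23.7% and 27.2% of all genes were.

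From TSKM-3D to iPS, 12 of the 29 were called lower, where 8.57% of all genes were, with a median of -0.89, and now the collagen chains were included. Col3a1 (-2.30), Col5a2 (-2.08), Col4a2 (-1.87), Col4a1 (-1.81), Col1a2 (-1.56) and Col5a1 (-1.37) fell. So did P3h4 (-2.59), the C-proteinase enhancer Pcolce (-1.60), the prolyl 4-hydroxylase subunit P4ha1 (-1.58) and the prolyl isomerase Fkbp14 (-1.42), while Col1a1 differed by -0.85 and was not called. Against fibroblast, 17 of 29 were lower in iPS cells with a median of -1.15, beside 13.8% of all genes called lower. The 10 with the largest differences were P4ha3 (-5.20), P3h4 (-2.71), Bmp1 (-2.64), P3h3 (-2.52), Kdelr3 (-2.48), Fkbp14 (-2.37), Plod3 (-2.34), Pcolce (-2.31), P4ha1 (-1.86) and Plod1 (-1.79). Col1a1 still read 11.47 on average in the iPS group, which had been grown on feeder fibroblasts, and any feeder RNA in those arrays was not tested.

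**Figure D2:**
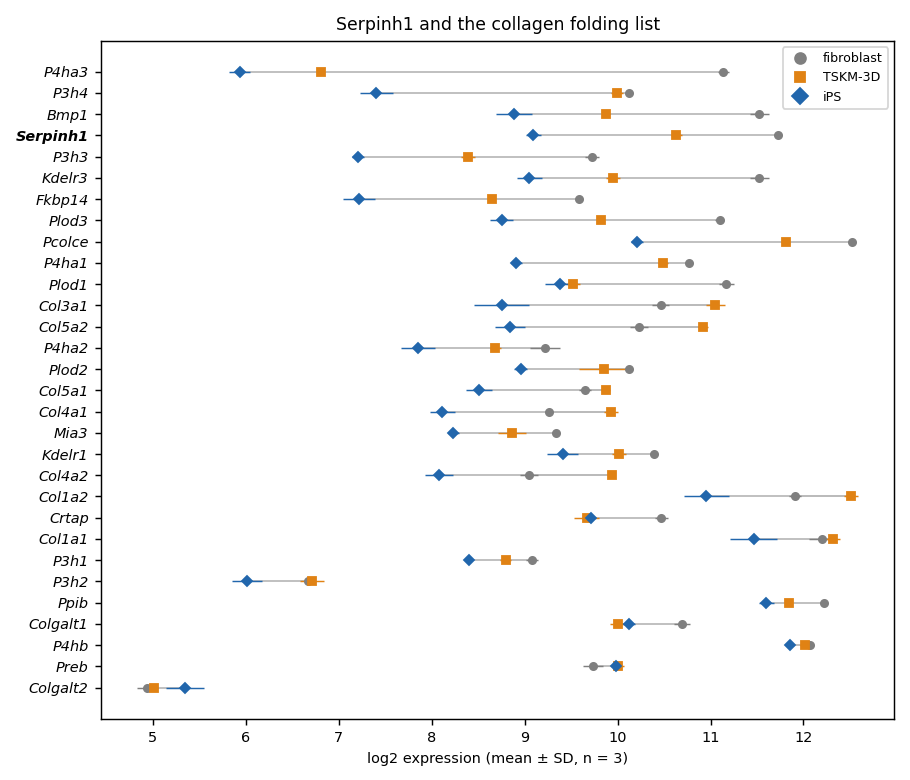
Mean reading (horizontal axis, log2, bars SD, n = 3) of Serpinh1 and the measured genes of the collagen folding list in the fibroblast (grey circles), TSKM-3D (orange squares) and iPS groups (blue diamonds), ordered by the difference of iPS from fibroblast. P4ha3 covers the widest distance, and the iPS group lies to the left of fibroblast for all 17 genes called lower. In the TSKM-3D group, Col1a1, Col1a2, Col3a1, Col4a1, Col4a2, Col5a1 and Col5a2 lie to the right of fibroblast. Their differences are 0.11, 0.60, 0.59, 0.66, 0.89, 0.22 and 0.69.

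Among the secreted protease inhibitors, Serpina3n had the largest difference of the 48 members, all of it between fibroblast and day 3. Serpina3n is an acute-phase protein related to human antichymotrypsin. It read 10.32, 10.28 and 10.40 on the fibroblast arrays, 5.07, 5.30 and 4.88 on the TSKM-3D arrays, and 5.10, 5.36 and 5.17 on the iPS arrays. The fibroblast arrays stood far above all others, whereas TSKM-3D and iPS arrays overlapped. The difference by day 3 was -5.25 ± 0.11 (38.05-fold, adjusted p = 1.13e-10), and that between TSKM-3D and iPS 0.13 ± 0.11 (adjusted p = 0.389). On all 6 later arrays the reading was below the array median. The third fibroblast array, at 10.40, read as the other fibroblast arrays did.

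Serping1, which inhibits the first complement component and the contact proteases, read 8.40, 8.42 and 8.54 in fibroblasts, 7.995, 7.82 and 8.29 on the TSKM-3D arrays and 8.10, 8.39 and 8.30 in iPS cells. It differed by -0.42 ± 0.12 by day 3 (adjusted p = 0.0146), short of 2-fold, and iPS differed from TSKM-3D by 0.23 and from fibroblast by -0.19, with no call. Of 13 measured complement and contact proteins that it controls or acts beside, 2 were called lower by day 3 (7.58% of all genes) and 2 against fibroblast in iPS cells (13.8%). Both times these were Masp1, a lectin pathway protease (-2.49 and -3.09), and C1qb (-1.63 and -1.49), which is also a macrophage marker.

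Serpinc1, which is antithrombin, stayed between 4.82 and 5.27 on all 9 arrays, with differences of 0.05, -0.03 and 0.02 and groups that overlapped. Serpini1, the neuroserpin that inhibits tissue plasminogen activator, averaged 5.17, 5.31 and 5.12, and no difference was called. Of the other clade A genes, 14 were measured in addition to Serpina3n, and none was called. Their readings ran from 3.35 to 5.45 and their differences from -0.19 to 0.65 by day 3. The largest belonged to Serpina1d, of the alpha-1-antitrypsin group, at 0.65 ± 0.12 (adjusted p = 0.000634), named here because of its value. Serpind1, Serpine3, Serpinf2 and Serpini2 were not called in any comparison. The liver makes most of the circulating clade A serpins, and the mean of 10 hepatocyte markers lay at 5.14 to 5.17, 5.40 to 5.57 and 5.67 to 5.71 in the groups in order. Of these, Apoa2 and Ahsg were called higher by day 3 while Alb read 4.22, 4.06 and 4.17 on average.

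Secreted serpins control the proteases of plasminogen activation, which dissolve clots and matrix. Of 28 genes of this system and of related serpin targets, 25 were measured, and 6 were called lower by day 3, where 7.58% of all genes were. From TSKM-3D to iPS, 10 were lower (8.57% of all genes) and 2 higher (6.48%). From fibroblast to iPS, 12 were lower (13.8%) and 2 higher (7.63%). The median differences were -0.04, -0.13 and -0.99. Plat, tissue plasminogen activator, fell by 1.82 by day 3 and then differed by -1.63 from TSKM-3D to iPS. Plau, urokinase, differed by -0.91 by day 3, which was not called, and fell by 2.11 from TSKM-3D to iPS. Its receptor Plaur differed by -0.06 and -0.49 over those steps, neither called. The other genes called lower by day 3 were the growth factor Hgf (-3.36), the matrix metalloproteinases Mmp9 (-2.08) and Mmp2 (-1.14), the secreted serine protease Htra1 (-1.94) and Thbd, thrombomodulin (-1.14).

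From TSKM-3D to iPS, the genes called higher were the membrane serine proteases St14 (2.33) and Prss8 (1.35). Besides Plau and Plat, the largest differences among those called lower belonged to F3, tissue factor (-2.83), Thbd (-2.64), Mmp2 (-2.29), the plasminogen-binding partners Anxa2 (-2.15) and S100a10 (-1.49), the plasminogen receptor Plgrkt (-1.74) and Mmp14 (-1.46). From fibroblast to iPS, the 10 largest called differences were those of Hgf (-4.42), Thbd (-3.79), Plat (-3.45), Mmp2 (-3.43), St14 (3.15), Plau (-3.02), Plgrkt (-2.54), F3 (-2.41), Anxa2 (-2.19) and Prss8 (1.72).

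Serpin and protease complexes are cleared by receptors of the LDL receptor family, of which Lrp1 is the main one. Among 10 measured clearance and signalling receptors, Lrp1 fell by 1.46 by day 3 and Plxdc2, a receptor for PEDF, by 1.11. Lrp2 was higher by 1.19. From TSKM-3D to iPS, Plxdc2 fell by a further 2.35, Lrpap1, the chaperone of these receptors, was higher by 1.01, and Lrp1 differed by -0.88, which was not called. In iPS cells against fibroblast, Plxdc2 (-3.46), Lrp1 (-2.34) and Vldlr (-1.49) were called lower and Lrp2 higher (1.01). The counts were 1 higher and 2 lower, 1 higher and 1 lower, and 1 higher and 3 lower of 10, beside the shares of all genes given above.

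Among the intracellular clade B members, 6 of 24 measured genes were called in at least 1 comparison. By day 3, 0 were higher (3.25% of all genes) and 3 lower (7.58%). From TSKM-3D to iPS, 2 were higher (6.48%) and 1 lower (8.57%). From fibroblast to iPS, 1 was higher (7.63%) and 4 lower (13.8%). Of the 6, 5 lie in one stretch of 17 neighbouring Serpin genes, from Serpinb1a to Serpinb6a in the annotation's order, of which 13 were measured. The share of all genes called in at least 1 comparison was not computed, so no excess in clade B or in this stretch is read. Neighbours in that stretch took different courses. Serpinb1a, Serpinb9 and Serpinb9b fell by day 3, Serpinb6a was lower in iPS cells, and Serpinb6c was higher there.

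**Figure D3:**
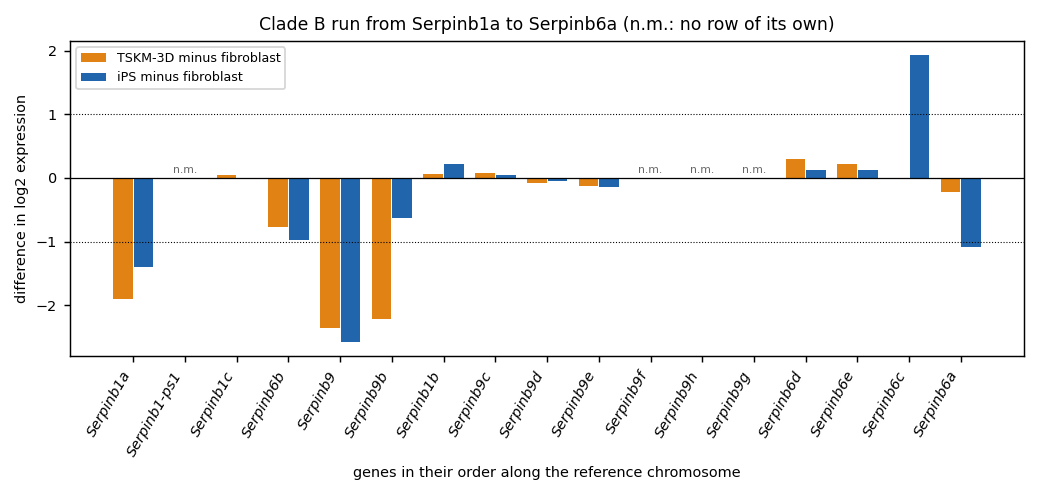
Difference of TSKM-3D (orange) and of iPS (blue) from the fibroblast group (vertical axis, log2) for the 17 Serpin genes from Serpinb1a to Serpinb6a in the annotation's order; n.m. marks genes with no array feature of their own, and dotted lines mark 2-fold. Serpinb9 stays down in the iPS group (-2.58) while its neighbour Serpinb9b lies at -0.63, and Serpinb6c alone is more than 2-fold up.

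Serpinb1a inhibits neutrophil elastase and cathepsin G. It read 7.90, 7.86 and 7.65 on the fibroblast arrays, 5.89, 5.82 and 6.004 on the TSKM-3D arrays, and 6.50, 6.18 and 6.51 on the iPS arrays. The TSKM-3D arrays were lowest and no groups overlapped. It was 3.73-fold lower by day 3 (difference -1.90 ± 0.11, adjusted p = 7.46e-08), and higher by 0.49 ± 0.11 in iPS cells than on the TSKM-3D arrays (adjusted p = 0.00258), which is under 2-fold.

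Serpinb9, the mouse inhibitor of granzyme B, read 7.41, 7.41 and 7.36 in fibroblasts, 5.34, 4.56 and 5.18 on the TSKM-3D arrays and 4.70, 4.73 and 5.02 in iPS cells. The fibroblast arrays were above all others, and the later groups overlapped. It was 5.16-fold lower by day 3 (difference -2.37 ± 0.17, adjusted p = 4.17e-07), and iPS differed from TSKM-3D by -0.21 ± 0.17 (adjusted p = 0.363).

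Its paralogue Serpinb9b fell as far and came most of the way back. It read 8.24, 8.35 and 8.38 in fibroblasts, 6.18, 6.26 and 5.88 on the TSKM-3D arrays, and 7.78, 7.64 and 7.65 in iPS cells, with no overlap between any groups. It was 4.64-fold lower by day 3 (difference -2.21 ± 0.10, adjusted p = 1.64e-08). It was then 2.99-fold higher in iPS cells than on the TSKM-3D arrays (1.58 ± 0.10, adjusted p = 1.22e-07), and 0.63 ± 0.10 below fibroblast. Within each array, Serpinb9b minus Serpinb9 was 0.93 ± 0.09 (SD, n = 3) in fibroblasts, 1.08 ± 0.54 on the TSKM-3D arrays and 2.87 ± 0.22 in iPS cells. The shift of 1.79 from TSKM-3D to iPS had an exact two-sided permutation p = 0.1, the smallest that 3 against 3 arrays allow, and the pair was chosen after its values were seen. Near-identical paralogues can share probe sequence, so these readings may not be wholly separate.

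Serpinb6a, a broadly expressed inhibitor of cathepsin G and other serine proteases, read 10.94, 10.94 and 10.98 in fibroblasts, 10.86, 10.57 and 10.76 on the TSKM-3D arrays and 9.79, 9.96 and 9.86 in iPS cells. The iPS arrays were below all others. The difference of iPS from fibroblast was -1.08 ± 0.09 (2.12-fold, adjusted p = 5.33e-07). That from TSKM-3D was -0.86 ± 0.09 (adjusted p = 5.74e-06), under 2-fold, and under quantile normalization the difference from fibroblast was -0.97, also under it. Serpinb6b, named after its values were seen, differed from fibroblast by -0.97 ± 0.09 in iPS cells, the largest difference of any member never called.

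Serpinb6c ran the other way. It read 3.91, 4.11 and 4.20 in fibroblasts, 4.29, 4.20 and 3.70 on the TSKM-3D arrays and 5.87, 6.31 and 5.84 in iPS cells, so that the iPS arrays stood alone. The difference of iPS from TSKM-3D was 1.94 ± 0.16 (3.85-fold, adjusted p = 1.19e-06), while fibroblast and TSKM-3D differed by -0.01. It lay below the array median on 8 of 9 arrays, so that both levels are low. Within arrays, Serpinb6c minus Serpinb6a rose by 2.81 from TSKM-3D to iPS (exact two-sided permutation p = 0.1, the smallest possible, a pair chosen after its values were seen).

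Serpinb8, which inhibits furin, read 5.86, 6.07 and 5.85 in fibroblasts, 5.88, 5.74 and 5.86 on the TSKM-3D arrays and 4.62, 4.82 and 4.84 in iPS cells. It was lower in iPS cells than on the TSKM-3D arrays by 2.09-fold (difference -1.07 ± 0.09, adjusted p = 1.42e-06), also at dim readings. Without the first iPS array this difference was -0.998, just under 2-fold.

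Markers of other cells moved over the same steps. The mean of 12 macrophage markers lay at 6.78 to 6.92 on the fibroblast arrays, 5.53 to 5.73 on the TSKM-3D arrays and 5.92 to 5.96 on the iPS arrays. Of these, 5 were called lower by day 3, where 7.58% of all genes were. Among the 5, Lyz2 averaged 9.18, 5.17 and 6.04 and Cd53 8.22, 5.31 and 5.33. Cd68 went the other way, averaging 7.49, 7.67 and 9.59, and was called higher in iPS cells than in either other group. The mean of the trophoblast markers was 5.55 to 5.61 on the fibroblast arrays and 5.54 to 5.90 on the TSKM-3D arrays. On the iPS arrays it was 6.67 to 6.74. In iPS cells 4 of 10, Eomes, Tfap2c, Krt8 and Krt18, were called higher than in either other group. Of all genes, 6.48% were called higher against TSKM-3D and 7.63% against fibroblast. Tpbpa averaged 3.35 and Elf5 4.85 in iPS cells, and neither was called. Markers of keratinocytes, which are known to express several clade B genes, averaged 5.53 to 5.60, 5.43 to 5.73 and 5.85 to 5.95. Of 10, 1, Sfn, was called higher in iPS cells than in either other group, beside the same shares of all genes. The part of such cells in the values of Serpinb1a, Serpinb9, Serpinb9b and Serpinb6c was not tested.

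The proteases that clade A and clade B serpins trap were mostly not called. Of 17 measured, 1 was higher (3.25% of all genes) and 3 lower (7.58%) by day 3, 2 were lower from TSKM-3D to iPS (8.57%) and 3 from fibroblast to iPS (13.8%). Gzmb, the target of Serpinb9, averaged 4.61, 4.40 and 4.50, and neither it nor the neutrophil proteases Elane, Ctsg and Prtn3 was called. The apoptosis initiator Casp8 fell by 2.20 and then by 2.04, the collagen-degrading cathepsin Ctsk by 1.84 and 1.54, and Ctsh by 2.55 by day 3. Gzmm was higher by 1.22 by day 3. In iPS cells against fibroblast, Casp8 (-4.24), Ctsk (-3.37) and Ctsh (-3.06) were lower.

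The 39 members never called read between 2.79 and 8.54, and 33 of them missed the adjusted p threshold in every comparison. By day 3, 33 of the 39 had a difference above 0, or 84.6%, beside 57.3% of all genes and 78.8% of the 6742 genes that were dim on every array. Under quantile normalization 21 of 39 were above 0, and with array medians set equal 27 of 39, or 53.8% and 69.2%. The shares of all genes above 0 were then 49.7% and 49.6%. The share of these members by day 3 was above that of all genes under each scaling, by the least under quantile normalization. The share of dim genes was not computed under the other scalings, and the part of dimness was not tested. From TSKM-3D to iPS the share of these members was below that of all genes, 35.9% beside 48.4% in the deposited values. It was 23.1% beside 40.1% under quantile normalization and 7.69% beside 33.5% with array medians set equal. The second TSKM-3D array gave the highest of its group's readings for 23 of the 39. Serpinb7 had the same reading on 8 of 9 arrays. Some list genes named above also had equal readings on all 3 arrays of a group. Among them were Masp1, Thbd, Fkbp14 and Dab2 in the TSKM-3D group and Htra1 in the iPS group. Such a group showed no spread of its own for that gene.

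**Figure D4:**
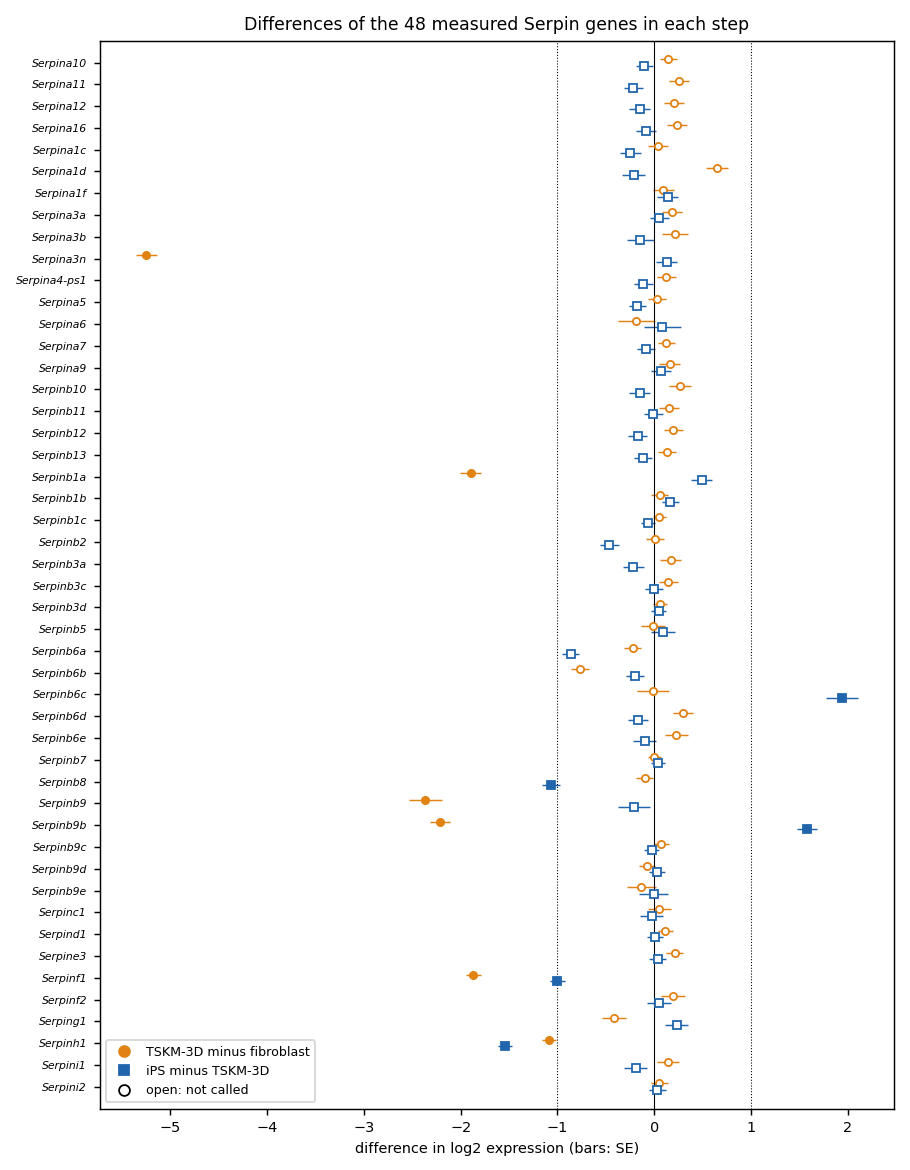
Difference between TSKM-3D and fibroblast and between iPS and TSKM-3D (log2) for all 48 measured Serpin genes, with 1 line per gene. Circles are the first difference and squares the second, filled where called, with bars for the SE. The 39 genes never called lie within 0.77 of 0 in these comparisons, and Serpina3n lies farthest out, at -5.25 by day 3.

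The day 3 calls depend on which label of the third fibroblast array is followed. The mean of 10 fibroblast markers lay at 11.47 to 11.56 on the fibroblast arrays, this one included, and at 9.51 to 9.56 on the TSKM-3D arrays. Serpina3n at 10.40 and Lum at 9.60 on this array also read as on the other fibroblast arrays. Placed with the TSKM-3D arrays, as 1 of its labels has it, 0 of 48 members were called lower by day 3 in place of 6, while the differences of these 6 kept their direction, Serpina3n at -3.89, Serpinb9 at -1.80, Serpinb9b at -1.62, Serpinb1a at -1.54, Serpinf1 at -1.41 and Serpinh1 at -0.83, all with adjusted p = 0.165. The rise of Serpinb9b from TSKM-3D to iPS was then 1.02, with adjusted p = 0.188.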

How the data were processed

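Expression was measured on 9 mouse whole-transcript arrays, 3 per group. The deposited table holds log2 values per array feature that the authors made from Affymetrix arrays; their software and normalization: not given in the sources used here. All 9 value columns mapped to samples. Depth has no meaning for arrays, and 3 arrays per group limit the precision. Of 34760 features, 21640 had 1 gene symbol, 1321 several and 11799 none in the platform annotation, and 21553 matched the RefSeq GRCm38.p6 gene table. Where a gene had several features the brightest was used (954 genes), though each Serpin gene had 1.

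A linear model of all 9 arrays was fitted in limma 3.58.1 (R 4.3.3) with moderated variances, after it was tested on simulated data. Differences are contrasts of that model with 6 residual degrees of freedom before moderation, and the 3 comparisons share arrays. Named are all called members, with Serpinh1, Serpinf1, Serpina3n, Serping1, Serpinc1, Serpini1, Serpinb1a, Serpinb6a and Serpinb9 whether called or not. List genes are named when called, up to 10 per list and comparison, with Plau, Plat, Plaur, Lrp1 and Col1a1 whether called or not. Members and lists were chosen with earlier results of these data known. Alternatives varied scaling, features per gene, dim genes, call rule, variance model, a replicate block, the third fibroblast array and the arrays included.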

Additional observations from a re-analysis of the deposited data

How the results depend on the processing

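Most counts of called Serpin genes stayed within 1.5 times under the alternatives. With no fold requirement, 2 members were higher by day 3 in place of 0, 5 lower from TSKM-3D to iPS in place of 3, and 3 higher from fibroblast to iPS in place of 1. With dim genes left out, 1 was higher from TSKM-3D to iPS, 0 higher and 4 lower from fibroblast to iPS. A test against 2-fold itself (limma treat) left 1 lower from TSKM-3D to iPS. With the third fibroblast array placed with TSKM-3D, 0 were lower by day 3 and 1 was higher from TSKM-3D to iPS. Leaving out each array in turn gave 6 lower by day 3, 2 to 3 lower from TSKM-3D to iPS and 7 to 8 lower from fibroblast to iPS. None of these results changed direction. Same-numbered arrays did not deviate together (correlations -0.098 to 0.062), and with the replicate number as a block the counts were 6 lower by day 3, 2 higher and 3 lower from TSKM-3D to iPS, and 1 higher and 7 lower from fibroblast to iPS, as without the block. Readings below the array median limit what could be seen of most of the family.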

Other observations

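Several features are shared by Serpinb9d, Serpinb9e, Serpinb9f and Serpinb9g and cannot be given to any of them. The brightest in fibroblasts read 5.17, 4.46 and 4.93 on the fibroblast arrays and 3.87, 3.00 and 3.96 on the TSKM-3D arrays. On the iPS arrays it read 4.69, 4.80 and 4.36. Its TSKM-3D arrays were lowest, and its fibroblast and iPS arrays overlapped. The others did not show this. Their fibroblast, TSKM-3D and iPS means were 3.95, 3.72 and 3.90, and 4.15, 4.27 and 4.08. Fibroblast and TSKM-3D arrays overlapped in both. No test was made of these features.

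Agt, angiotensinogen, has a serpin fold under another name. It differed by 0.13, -0.01 and 0.11 over the comparisons and was not called.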
